A study of Mus musculus with 4 samples.

Results

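Elastic fibre genes were followed across 4 Illumina mouse whole-genome BeadChip arrays of mouse embryonic fibroblasts (MEFs). The members were the 10 genes Eln, Fbn1, Fbn2, Fbln1, Fbln2, Fbln5, Lox, Loxl1, Mfap4 and Mfap5, found by their symbol in the array annotation. They have 19 of the 45281 probes and are 10 of the 30872 genes on the array. Signal was detected for 8 of the 10 genes and 15 of the 19 probes, each of the 15 on all 4 arrays, where detected means a detection p-value below 0.01. Eln was chosen by its own values on these arrays, which had been seen to rise in Rb-deleted cells and to fall in ΔCdk Rb-HA cells. The other 9 genes were taken for their known place in the fibre, and the question was whether they follow Eln.

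The cells were embryonic fibroblasts of strain FVB;129 whose Rb gene is floxed on both copies. Parental MEFs received solution without TAT-Cre and medium without virus. Rb-deleted MEFs received TAT-Cre, a cell-permeable recombinase that removes the floxed Rb gene, and medium without virus. WT Rb-HA MEFs received TAT-Cre and a retrovirus for wild-type Rb, and ΔCdk Rb-HA MEFs received TAT-Cre and a retrovirus for dCDK Rb, a phospho-mutant that Cdks cannot phosphorylate. Each treatment was given 2 times for 1 h, 3 h apart. All 4 cultures had been arrested by contact inhibition, released for 4 hr and exposed to doxorubicin, a DNA-damaging drug, at 100 ng/ml for 3 hr, which the array labels do not mention. Whether the cultures came from 1 embryo or several is not given in the sources used here. There is 1 array per condition, so no difference has a replicate check and no p-value was computed. WT and ΔCdk Rb-HA MEFs are the one pair matched for both TAT-Cre and virus infection. Virus infection cannot be told apart from the expressed Rb in comparisons with Rb-deleted MEFs, nor TAT-Cre from the loss of Rb in comparisons with parental MEFs.

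Elastic fibres give skin, lung and large arteries their recoil. They have a core of cross-linked elastin (the product of Eln) on a scaffold of microfibrils, which are built from fibrillins (Fbn1, Fbn2) and carry microfibril-associated proteins (Mfap2, Mfap4, Mfap5). Fibulins (Fbln1, Fbln2, Fbln5) link elastin, microfibrils and the cell surface, and the lysyl oxidases Lox and Loxl1 cross-link the elastin monomers. Fibroblasts and smooth muscle cells are the main producers of these proteins.

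Mean intensity was 336 to 346 on the 4 arrays and 15950 to 16740 probes were detected on each. The probe of Rb1 at base 4421 had an intensity of 543 in parental MEFs, 160.5 after Rb deletion, 181 with WT Rb-HA and 170.1 with ΔCdk Rb-HA. A second Rb1 probe, at base 4002, had 108, 56.7, 51.1 and 52.9, so Rb1 was below parental on all 3 arrays with both probes, and neither showed a return with either Rb-HA construct. Whether these probes lie in the part that TAT-Cre removes, or can register the retroviral Rb, is not given in the sources used here, so they do not check the re-expression. The paper reports both Rb-HA proteins at physiologic levels, from an Rb immunoblot of contact-inhibited MEFs. Fibroblast markers were detected for 10 of 10 genes, while 5 of 6 endothelial markers (Pecam1, Cdh5, Kdr, Tek and Tie1) were not detected on any array. Epithelial markers were detected for 4 of 5 genes, Krt8, Krt18 and Krt19 on all 4 arrays and Cdh1 on 1, while Epcam was not detected. The summed intensity of these epithelial markers was 267 to 316. Leukocyte markers were detected for 9 of 12 genes, and their summed intensity was 5091 in parental MEFs, 2276 after Rb deletion, 1973 with WT Rb-HA and 2450.5 with ΔCdk Rb-HA. Ptprc, Itgam and Fcer1g of that list were not detected. The part of leukocytes in the ratios to the parental array was not tested. Fewer cells of a type and less RNA per cell cannot be told apart in such bulk samples.

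Each probe on the array is an oligonucleotide of 50 bases. The first 30 bases are shown for the probes on which the results turn, because Eln and Mfap4 rest on 1 probe each, while the probes of Fbln1 differ in size of change and those of Fbn1 differ in direction. All 19 probe sequences are distinct and none is repeated elsewhere on the array. The sequences are written 5′ to 3′ in lower case, with the base of the source transcript at which the probe starts.
Eln, chromosome 5, base 3399: gttgtgtgggctggttgtccccacatgcag
Mfap4, chromosome 11, base 1155: accctcgacagagtcatgcagcacctgtgg
Fbln1, chromosome 15, base 2625: accaactgggctctttgtgtttcaagttga
Fbln1, chromosome 15, base 2001: gtaccccgccaaccaggccgacatcatctt
Fbn1, base 9763: gttcttgtgtggattaaggctggaggggcc
Fbn1, base 2694: agatagtagccttctgtggccttactgtta

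Elastin itself, the elastic core protein, covered the widest range of the detected members. Its intensity was 1904 in parental MEFs, 3174 after Rb deletion, 2080.3 with WT Rb-HA and 588 with ΔCdk Rb-HA. Thus Rb-deleted MEFs were highest and ΔCdk Rb-HA MEFs lowest, and each step in this order was larger than 2 bead standard errors. A bead standard error describes the spread over the beads of a probe within an array and leaves out the variation between cultures. After background correction and quantile normalization the log2 ratio of Eln to parental MEFs after Rb deletion was 0.82 (bead standard error 0.09), or 1.76-fold higher. With WT Rb-HA it was 0.19 (0.05) and with ΔCdk Rb-HA -1.63 (0.06), the latter 3.10-fold lower. These values chose the gene and are given as a description.

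Compared without the parental array, Eln was 5.47-fold lower in ΔCdk Rb-HA MEFs than after Rb deletion, at a log2 ratio of -2.45 (bead standard error 0.09). That was the lowest ratio of the 12616 genes analysed in this comparison. Against WT Rb-HA MEFs it was 3.55-fold lower, at -1.83 (0.05), the second lowest of the 12616 genes (rank 2). Between WT Rb-HA and Rb-deleted MEFs the log2 ratio was -0.62 (0.09), or 1.54-fold lower with WT Rb-HA, which ranked 85 from the lowest and was within 1.6-fold. The ratio to Rb-deleted MEFs is the difference of the values that chose Eln, and that to WT Rb-HA MEFs uses one of them, so these ranks follow from the choice and are a description. A gene was counted as higher or lower if it passed 1.6-fold, the study's filter, which is a log2 ratio of 0.68.

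**Figure D1:**
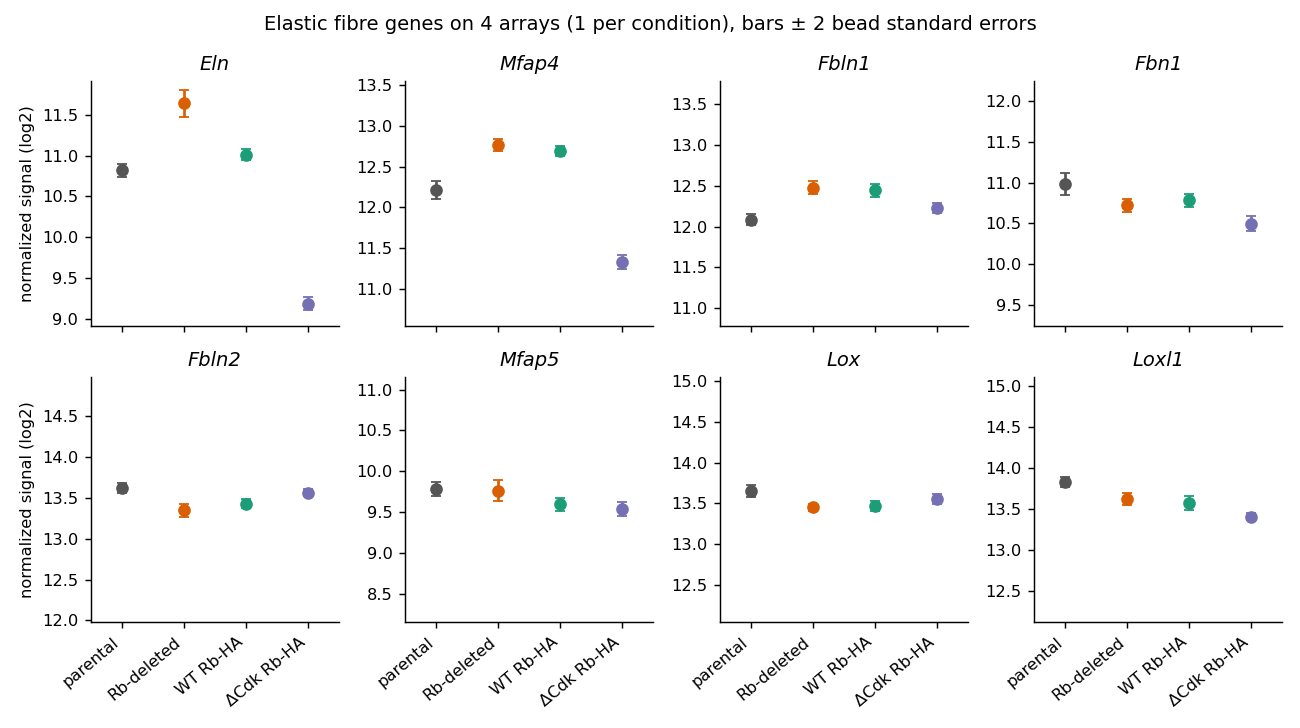
Normalized log2 signal of the brightest probe of the 8 detected elastic fibre genes on the parental, Rb-deleted, WT and ΔCdk Rb-HA arrays, 1 array each. Points are array values, bars are 2 bead standard errors either way, and every panel spans the same height, so that the drop of Eln and Mfap4 on the ΔCdk Rb-HA array can be set against the small differences of Lox, Fbln2 and Mfap5.

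Mfap4, which encodes a microfibril-associated glycoprotein that binds elastin and fibrillin, was the member nearest to Eln. Its intensity was 4779 in parental MEFs, 6749 after Rb deletion, 6669 with WT Rb-HA and 2555 with ΔCdk Rb-HA. The Rb-deleted and WT Rb-HA values did not differ by more than 2 bead standard errors, while parental lay below both and ΔCdk Rb-HA below parental. Compared to parental, its log2 ratio was 0.55 after Rb deletion (bead standard error 0.07), 0.48 with WT Rb-HA (0.06) and -0.88 with ΔCdk Rb-HA (0.07). The first 2 of these were within 1.6-fold, and the last was a 1.83-fold decrease. Directly compared, Mfap4 was 2.69-fold lower in ΔCdk Rb-HA MEFs than after Rb deletion (log2 ratio -1.43, bead standard error 0.06) and 2.57-fold lower than in WT Rb-HA MEFs (-1.36, 0.05). It ranked 21 and 15 from the lowest of 12616 genes in these comparisons. Unlike Eln, its log2 ratio between WT Rb-HA and Rb-deleted MEFs was -0.07 (0.05).

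Among the fibrillins, the scaffold proteins of the microfibril, Fbn1 was detected and Fbn2 was not. The probe of Fbn2 had intensities of 36.9 to 40.2, not above background anywhere, and a change in it could not be measured. For Fbn1 the brightest probe, at base 9763, had an intensity of 2126 in parental MEFs, 1717 after Rb deletion, 1763 with WT Rb-HA and 1432 with ΔCdk Rb-HA. Parental MEFs were thus highest, ΔCdk Rb-HA MEFs lowest, and the other two were within 2 bead standard errors of each other. Its log2 ratios to parental were -0.26 (bead standard error 0.08), -0.20 (0.08) and -0.49 (0.08), in the same order of arrays. A second Fbn1 probe, at base 2694 of a separate cDNA, had intensities of 149, 122, 126 and 171. There the ΔCdk Rb-HA array was the highest, at a log2 ratio to parental of 0.29 (0.08), so the probes of Fbn1 gave no common direction for ΔCdk Rb-HA MEFs. The last probe of the gene was not detected on any array.

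Fibulin genes differed from each other. Fbln1, which encodes a fibulin found in elastic fibres and basement membranes, had log2 ratios to parental above 0 on the other 3 arrays with each of its 4 detected probes. Intensity of its brightest probe, at base 2625, was 4377 in parental MEFs, 5596 after Rb deletion, 5604 with WT Rb-HA and 4849 with ΔCdk Rb-HA. The parental array was lowest and ΔCdk Rb-HA next, while Rb-deleted and WT Rb-HA MEFs did not differ by more than 2 bead standard errors. Its log2 ratios to parental were 0.39 (bead standard error 0.05), 0.36 (0.05) and 0.14 (0.05).

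The size of the Fbln1 difference depended on the probe. At base 2001 the intensities were 313, 483, 533 and 377 and the log2 ratios to parental 0.71 (0.08), 0.88 (0.07) and 0.38 (0.07), so this probe passed 1.6-fold in Rb-deleted and WT Rb-HA MEFs. The probe at base 17 of its source sequence gave 0.67, 0.65 and 0.28, and that at base 2508 gave 0.22, 0.24 and 0.07. The last value was under 1 bead standard error (0.08), and before normalization the intensity there was 343 in parental MEFs and 338 with ΔCdk Rb-HA. All 4 probes were lower in ΔCdk Rb-HA than in WT Rb-HA MEFs, by 0.22, 0.49, 0.37 and 0.18 on the log2 scale. None of these 4 differences passed 1.6-fold.

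Fbln2, a fibulin that binds fibrillin and other matrix proteins, had an intensity of 12745 in parental MEFs, 10201 after Rb deletion, 11174 with WT Rb-HA and 12002 with ΔCdk Rb-HA with its brightest probe. In contrast to Eln, Rb-deleted MEFs were the lowest, though within 2 bead standard errors of WT Rb-HA MEFs. ΔCdk Rb-HA MEFs were within 2 bead standard errors of parental. Log2 ratios to parental were -0.28 (bead standard error 0.05), -0.19 (0.04) and -0.06 (0.04). The dimmer 2 probes gave -0.03, 0.18 and 0.20 (base 3860) and 0.04, 0.21 and 0.32 (base 2315) relative to parental, so its probes set no common direction there. Over all 3 probes the log2 ratio of ΔCdk Rb-HA to Rb-deleted MEFs was 0.22 (0.05), 0.22 (0.17) and 0.28 (0.13), above 0 with each. The value at base 3860 was within 2 bead standard errors of 0. Fbln5, which encodes the fibulin needed to assemble elastin on microfibrils, had intensities of 34.1 to 40.3 and was not detected on any array.

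**Figure D2:**
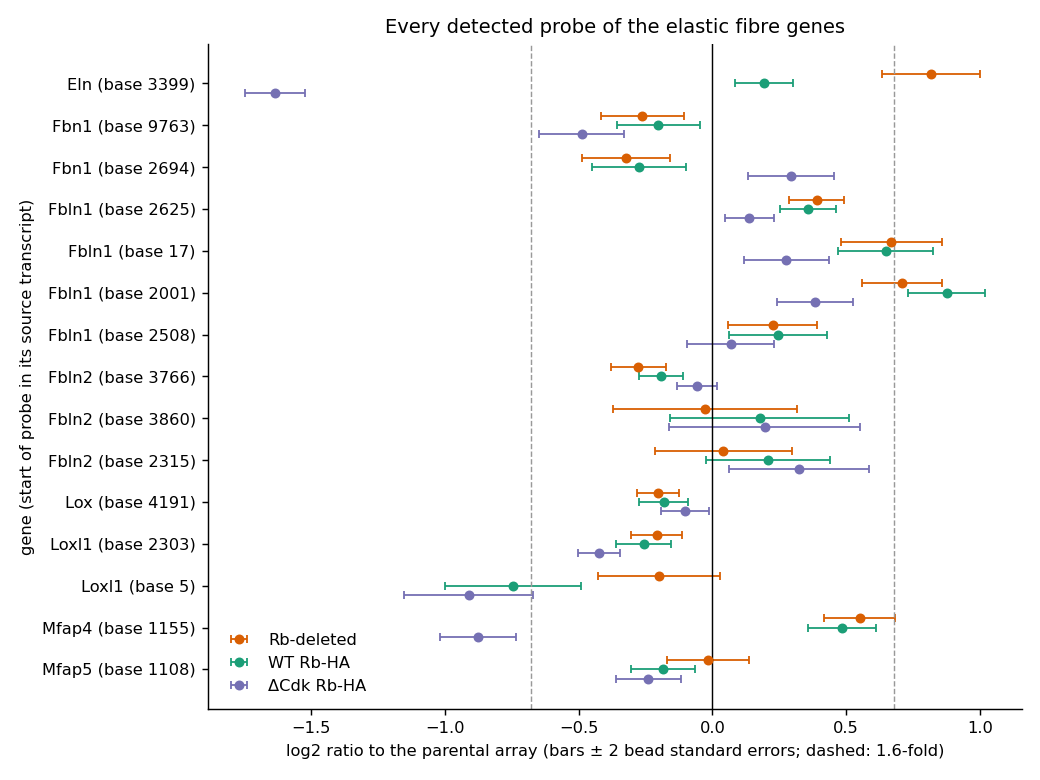
Log2 ratio to the parental array of the 15 detected probes of the elastic fibre genes in Rb-deleted, WT and ΔCdk Rb-HA MEFs, which share the parental array. Bars are 2 bead standard errors either way and dashed lines mark 1.6-fold; Eln and Mfap4 have ΔCdk Rb-HA values left of the line and Rb-deleted values right of 0, and no other gene has both.

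The cross-linking enzymes were detected on all 4 arrays, and by their brightest probes stayed within 1.6-fold in each comparison. Intensity of Lox, the lysyl oxidase, was 13003 in parental MEFs, 10814 after Rb deletion, 11537 with WT Rb-HA and 11863 with ΔCdk Rb-HA. Parental MEFs were highest, and the remaining 3 arrays formed an order in which no neighbours differed by more than 2 bead standard errors. Log2 ratios of Lox to parental were -0.20 (bead standard error 0.04), -0.18 (0.05) and -0.10 (0.05). Loxl1, the family member needed to keep elastic fibres renewed in adult tissue, had an intensity of 14426, 12384, 12326 and 10719 with its brightest probe. Its log2 ratios were -0.21 (0.05), -0.26 (0.05) and -0.43 (0.04), and ΔCdk Rb-HA MEFs were lowest. A dimmer Loxl1 probe, at intensities of 153, 134, 101 and 91.0, gave -0.20 (0.11), -0.75 (0.13) and -0.91 (0.12), past 1.6-fold in WT and ΔCdk Rb-HA MEFs.

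Mfap5, a microfibril-associated glycoprotein that binds fibrillin, had an intensity of 939 in parental MEFs, 891 after Rb deletion, 793 with WT Rb-HA and 739.9 with ΔCdk Rb-HA. Parental and Rb-deleted MEFs did not differ by more than 2 bead standard errors, nor did WT and ΔCdk Rb-HA MEFs. Log2 ratios to parental were -0.02 (bead standard error 0.08), -0.18 (0.06) and -0.24 (0.06).

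Counted over the 8 detected genes by their brightest probe, Eln was the 1 member more than 1.6-fold higher in Rb-deleted than in parental MEFs, where 2.14% of all genes analysed were higher. Mfap4, at 0.55, lay next outside the filter. Decreased members numbered 0 in this comparison, against 2.98% of all genes. In WT Rb-HA MEFs 0 of 8 members were higher and 0 lower than in parental MEFs (0.888% and 2.46% of all genes). In ΔCdk Rb-HA MEFs 0 were higher and 2, Eln and Mfap4, were lower than in parental MEFs (2.58% and 3.3% of all genes), with Fbn1, at -0.49, next outside. Between WT Rb-HA and Rb-deleted MEFs 0 members were higher and 0 lower (0.539% and 0.484% of all genes). Lower in ΔCdk Rb-HA MEFs than after Rb deletion were the same 2 members (1.95% of all genes), and lower than in WT Rb-HA MEFs again the same 2 (1.01%), with 0 members higher in either comparison (2.31% and 0.84%). All 8 members were detected on every array, so none passed the detection filter through 1 array alone. Eln took part in these counts although its values chose it, and the 3 comparisons with parental MEFs share 1 array.

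The median log2 ratio of the 8 members was -0.11 in Rb-deleted, -0.18 in WT Rb-HA and -0.33 in ΔCdk Rb-HA compared to parental MEFs, where the medians of all 12616 genes were 0.02, 0.01 and -0.01. With the detected probes of each gene averaged, the medians for WT and ΔCdk Rb-HA moved to -0.06 and -0.17. In ΔCdk Rb-HA compared to WT Rb-HA MEFs it was -0.19 (all genes -0.01), with 6 members below 0 and 2 above. Of all genes 51.3% were below 0 and 48.5% above. The 3024 genes with several probes detected on all 4 arrays had a median range of 0.20 between their probes in the log2 ratio of Rb-deleted to parental MEFs, and 0.24 in that of ΔCdk Rb-HA to parental. This range covers disagreement between probes and leaves out the variation between cultures.

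**Figure D3:**
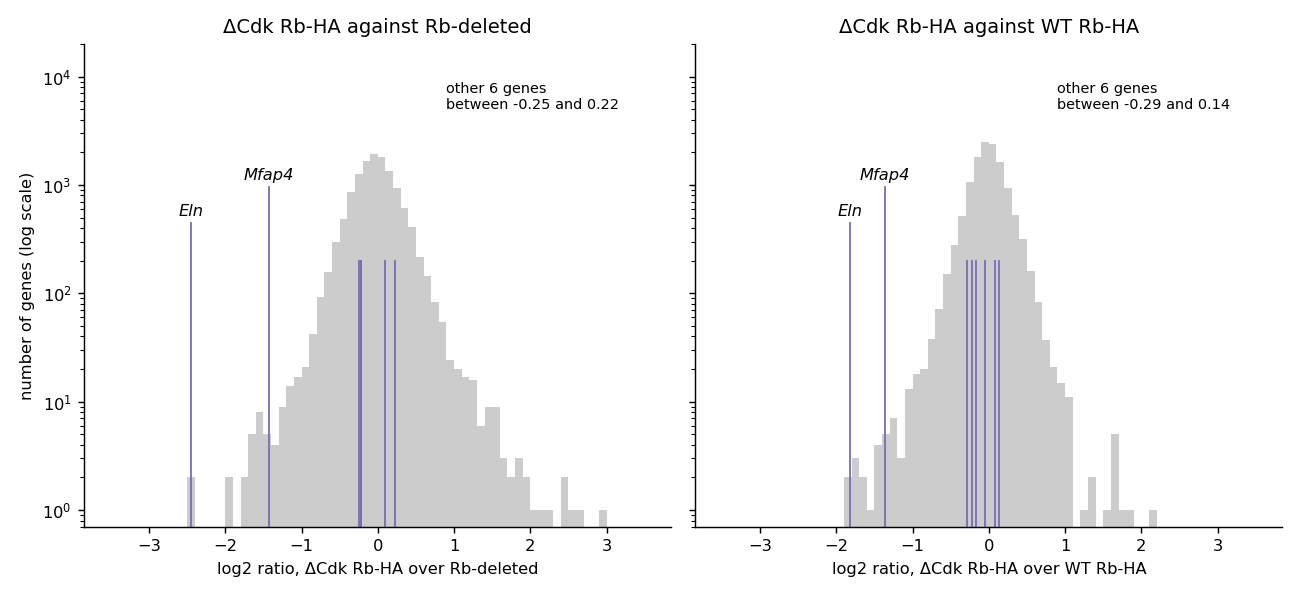
Number of genes, on a log scale, by log2 ratio of ΔCdk Rb-HA to Rb-deleted MEFs (left) and to WT Rb-HA MEFs (right), for the 12616 genes analysed. Vertical lines mark the 8 detected elastic fibre genes; Eln and Mfap4 lie in the lower tail at -2.45 and -1.43 on the left and at -1.83 and -1.36 on the right, and the remaining 6 lie in the body of the distribution.

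Other genes of the elastic fibre pathway were taken as a list of 44, chosen for function. Signal was detected for 35, 32 of them on all 4 arrays. In ΔCdk Rb-HA compared to WT Rb-HA MEFs, 2 of the 35 were lower past 1.6-fold, where 1.01% of all genes were, and 0 higher. In ΔCdk Rb-HA compared to Rb-deleted MEFs Mfap2, Ltbp4 and Tgfb1 were lower (1.95% of all genes) and 0 higher. Fbln7 also had a log2 ratio of -0.72 there but was detected on the Rb-deleted array alone, and is not shown to pass 1.6-fold. In Rb-deleted compared to parental MEFs 1 was higher and 1 lower (2.14% and 2.98% of all genes), with WT Rb-HA 0 and 0 (0.888% and 2.46%), and with ΔCdk Rb-HA 0 and 3 (2.58% and 3.3%). At 1 of 35 each way, the counts after Rb deletion are near the share of all genes. The list's median log2 ratio was -0.12 in ΔCdk Rb-HA compared to WT Rb-HA MEFs.

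Mfap2, the gene of the microfibril-associated glycoprotein MAGP-1, which binds fibrillin and tropoelastin, was 1 of the 2 genes lower than in WT Rb-HA MEFs. Its brightest probe had an intensity of 1954 in parental MEFs, 2498 after Rb deletion, 2248 with WT Rb-HA and 1058 with ΔCdk Rb-HA, so with this probe the arrays stood in the same order as for Eln. Its log2 ratios to parental were 0.42 (bead standard error 0.05), 0.26 (0.06) and -0.80 (0.06), and in ΔCdk Rb-HA compared to WT Rb-HA MEFs it was -1.06 (0.06). All 3 probes of Mfap2 were detected, and the other two gave -1.37 (0.08) and -0.93 (0.12) for that last ratio. The former is the probe at base 125, with intensities of 842, 1049, 1071 and 422, and the latter that at base 865, with 611, 706, 576 and 308. The ΔCdk Rb-HA array was lowest with both, while WT Rb-HA lay above Rb-deleted at base 125 and below parental at base 865.

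Ltbp4, a latent TGF-beta binding protein that also takes part in elastic fibre assembly with fibulins, was the other. Its intensity was 204 in parental MEFs, 313 after Rb deletion, 238 with WT Rb-HA and 130.8 with ΔCdk Rb-HA. Rb-deleted MEFs were again highest and ΔCdk Rb-HA MEFs lowest. Log2 ratios to parental were 0.72 (bead standard error 0.09), 0.29 (0.10) and -0.70 (0.11), and that of ΔCdk Rb-HA to WT Rb-HA MEFs was -0.99 (0.10). A second probe, at base 5053, gave 0.55, 0.33 and -0.77 to parental and -1.10 (0.11) between the last pair.

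The remaining scaffold genes stayed within 1.6-fold between ΔCdk and WT Rb-HA MEFs. Emilin1, an elastin-associated glycoprotein, had a log2 ratio of 0.12, Efemp2, the fibulin that brings Lox to elastin, 0.01, and fibronectin (Fn1) 0.19. Most of the group lay below 0 in this comparison. With Mfap2 and Ltbp4 included, 13 of the 19 detected scaffold genes were below 0 and 6 above, with a median of -0.13. Of all genes 51.3% were below 0 there. Hmcn1, hemicentin, was lower than parental in Rb-deleted (-0.80, bead standard error 0.08) and ΔCdk Rb-HA MEFs (-0.72, 0.09). With WT Rb-HA it was also below parental, at -0.45 (0.08), within 1.6-fold. On the Rb-deleted array Fbln7 was at least 1.25-fold higher than on the ΔCdk Rb-HA array. For that bound the dim side was taken as its own normalized value or as the dimmest detected probe of the ΔCdk Rb-HA array, whichever was larger.

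Cross-linking and processing enzymes of the list had 6 detected genes of 10, and none passed 1.6-fold in any of the 6 comparisons. In these comparisons 0.484% to 3.3% of all genes passed in each direction. Pcolce, an enhancer of procollagen processing, had a log2 ratio of -0.44 in ΔCdk Rb-HA compared to WT Rb-HA MEFs, and Loxl4, another lysyl oxidase, one of 0.54. Receptors and TGF-beta ligands had 10 detected genes of 11. Tgfb1, the ligand TGF-beta 1, was lower in ΔCdk Rb-HA MEFs than after Rb deletion, at -0.72 (bead standard error 0.09), with intensities of 602 in parental MEFs, 839.8 after Rb deletion, 745 with WT Rb-HA and 503 with ΔCdk Rb-HA. Its highest and lowest arrays were those of Eln.

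**Figure D4:**
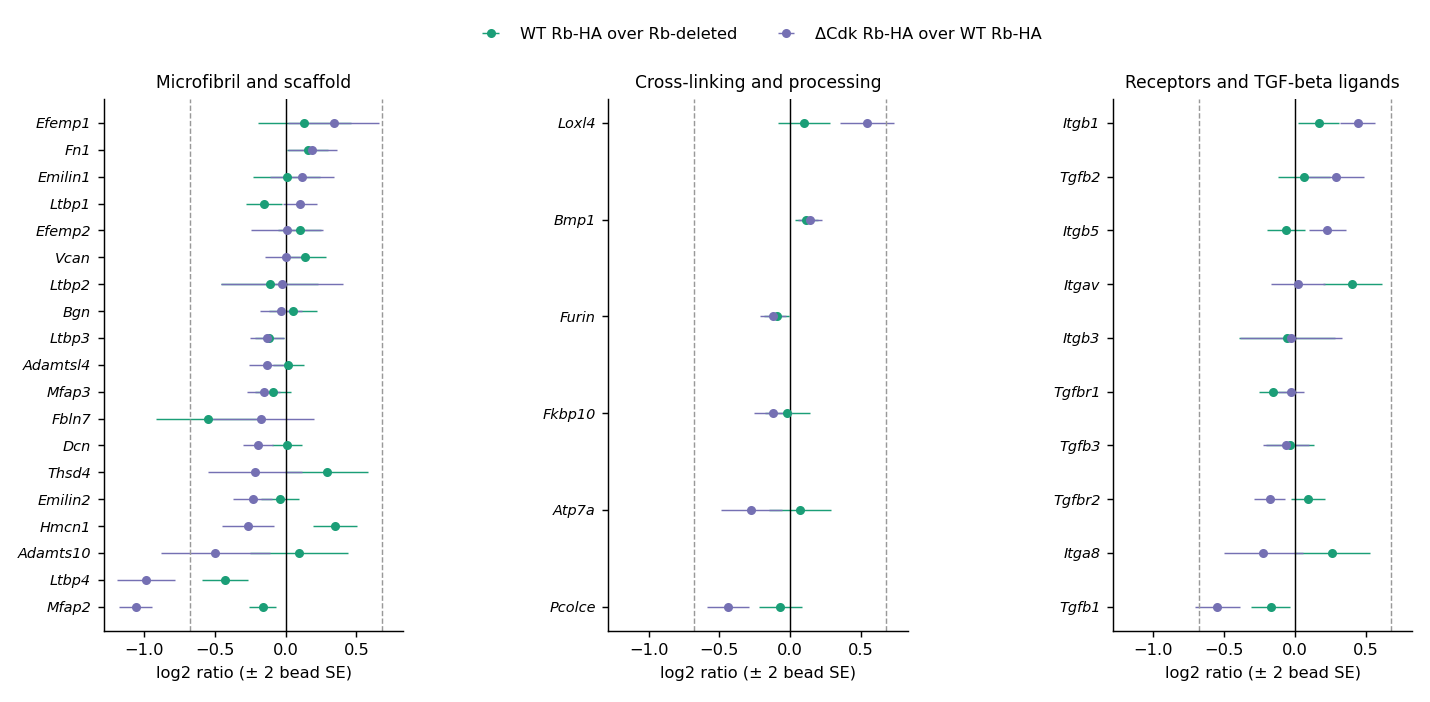
Log2 ratio of WT Rb-HA to Rb-deleted MEFs and of ΔCdk Rb-HA to WT Rb-HA MEFs for the 35 detected genes of the elastic fibre pathway list, in 3 groups. Bars are 2 bead standard errors either way and dashed lines mark 1.6-fold; Mfap2 (-1.06) and Ltbp4 (-0.99) lie beyond the line for ΔCdk Rb-HA over WT Rb-HA and the other 33 genes do not.

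Of 8 enzymes that can degrade elastin, 7 were detected. Mmp9, a gelatinase, was the 1 gene of them past 1.6-fold between ΔCdk and WT Rb-HA MEFs (1.01% of all genes lower and 0.84% higher). Its log2 ratio was -0.83 (bead standard error 0.06), with intensities of 1112 in parental MEFs, 1006 after Rb deletion, 998 with WT Rb-HA and 560.4 with ΔCdk Rb-HA. Mmp2 gave -0.29 and Mmp14 -0.19 in the same comparison. Ctss, the cathepsin of antigen-presenting cells, was lower than parental on the other 3 arrays, at -1.17, -1.51 and -1.15. Log2 ratios below 0 were also found for all 9 detected leukocyte markers after Rb deletion (47.5% of all genes) and with WT Rb-HA (48.6%). With ΔCdk Rb-HA they were found for 8 of the 9 (50.9% of all genes).

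Fibrillar collagens, the other large fibre system of these cells, had 8 detected genes of 9. In ΔCdk Rb-HA compared to WT Rb-HA MEFs 0 of the 8 passed 1.6-fold (0.84% of all genes higher and 1.01% lower), with a median log2 ratio of -0.17. Against parental MEFs 3 were lower with ΔCdk Rb-HA (3.3% of all genes), Col3a1 at -0.98, Col5a2 at -0.99 and Col5a3 at -0.77. A second Col3a1 probe, at base 268, gave -0.40 there, within 1.6-fold, and 0.50 in ΔCdk Rb-HA compared to Rb-deleted MEFs where the brightest gave -0.25. For Col5a2, the probe at base 18 gave -0.76 in ΔCdk Rb-HA compared to parental MEFs. The probe at base 6400 was at least 1.995-fold lower there, not being detected with ΔCdk Rb-HA. That at base 4144 gave -0.003, with dim intensities of 61.4 and 61.2. With WT Rb-HA, Col5a2 was lower at -0.96 (2.46% of all genes). Col3a1 and Col5a2 were also lower in Rb-deleted MEFs, at -0.73 and -0.69 (2.98% of all genes), where Eln was higher. Smooth muscle markers, detected for 6 genes of 8, had summed intensities of 35995 in parental MEFs, 38409 after Rb deletion, 36956 with WT Rb-HA and 38551 with ΔCdk Rb-HA. Most of each sum was Acta2, at 33802, 36009, 34916 and 36300. None of the 6 passed 1.6-fold in any comparison, where 0.484% to 3.3% of all genes passed in each direction. Tagln and Smtn differed in direction, at 0.55 and -0.50 in ΔCdk Rb-HA compared to parental MEFs. Cnn1 and Myocd of that list were not detected. Summed intensity of the fibroblast markers was 47825, 42201, 46967 and 40239, in the same order of arrays. In ΔCdk Rb-HA compared to WT Rb-HA MEFs 9 of the 10 fibroblast markers were below 0, with a median log2 ratio of -0.19. Of all genes 51.3% were below 0 there, with a median of -0.01. Pdgfrb, the PDGF receptor beta, was the 1 of them past 1.6-fold, at -0.70 (1.01% of all genes lower), and at -0.95 compared to Rb-deleted MEFs (1.95%). Its intensity was 368 in parental MEFs, 435 after Rb deletion, 366 with WT Rb-HA and 231 with ΔCdk Rb-HA, highest after Rb deletion and lowest with ΔCdk Rb-HA, as for Eln. Other fibroblast markers had other orders. Lum was lowest after Rb deletion, and Twist2 was above parental with ΔCdk Rb-HA, at 0.39. Epithelial markers other than Epcam summed to 288, 303, 316 and 267. Chondrocyte markers, detected for 4 genes of 5, summed to 1485, 1347, 1240 and 1298, of which Sox9 gave 1163, 1001, 976 and 1057. Acan was lower in ΔCdk Rb-HA than in parental MEFs at -1.16 (3.3% of all genes). With ΔCdk Rb-HA, Acan and Comp were lower than after Rb deletion at -1.16 and -0.84 (1.95% of all genes). Among the leukocyte markers Cd53 and Lyz2 were higher in ΔCdk than in WT Rb-HA MEFs, at 1.00 and 0.78 (0.84% of all genes). The other detected leukocyte markers stayed within 1.6-fold there, with Coro1a at -0.32 and Tyrobp at -0.25. Of the 9 detected, 6 were above 0 and 3 below, with a median of 0.11 (48.5% of all genes above 0). The part of these cell types in the Eln result was not tested.

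Genes with a pattern like that of Eln were ranked over the 3 log2 ratios to parental, by the Euclidean distance from Eln among the 10836 other genes detected on all 4 arrays. Nearest were Dlk1, at a distance of 0.63, Col14a1, at 0.67, Col8a2, at 0.67, Ctsa, at 0.74, and AW120700, at 0.80. Mfap4 came next, at rank 6 and a distance of 0.86, while Fbn1 was at rank 1160, Loxl1 at 1424, Mfap5 at 1652, Fbln1 at 4591, Lox at 5632 and Fbln2 at 7121. The ratios share the parental array, and the distances describe these 4 arrays.

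Dlk1, a non-canonical Notch ligand of fetal and preadipocyte cells, had intensities of 13283 in parental MEFs, 19306 after Rb deletion, 16491 with WT Rb-HA and 6218 with ΔCdk Rb-HA. Its log2 ratios to parental were 0.58 (bead standard error 0.05), 0.32 (0.06) and -1.07 (0.05), and its second probe gave 0.94, 0.45 and -1.44. Col14a1, a collagen on the surface of fibrils, had intensities of 146, 230.0, 183 and 83.7, and its log2 ratios to parental were 0.79, 0.40 and -1.001. The second Col14a1 probe gave 0.82, 0.41 and -0.27 (bead standard error 0.17), so its fall below parental with ΔCdk Rb-HA was within 2 bead standard errors. Col8a2, a network-forming collagen, gave 0.46, 0.22 and -1.07. Its second probe gave -0.09 and -0.18 and fell to background with ΔCdk Rb-HA, where it was at least 1.68-fold lower than parental. Ctsa, cathepsin A, gave 0.60, 0.07 and -0.93 with its brightest probe, but -0.51, 0.11 and 0.44 with the next brightest, so its place among these genes rests on 1 of its 5 probes.

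**Figure D5:**
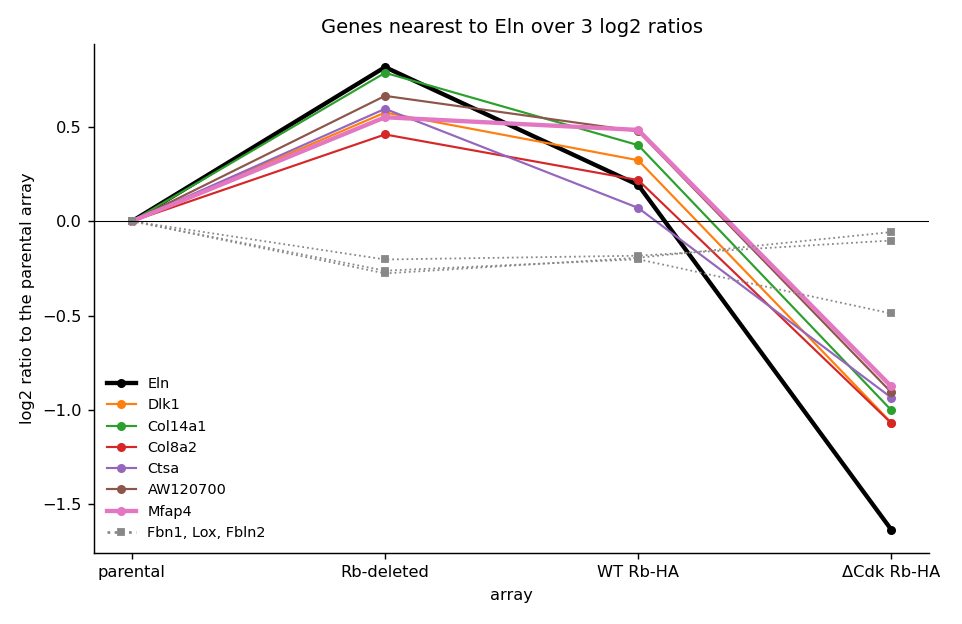
Log2 ratio to the parental array (0 by definition) in Rb-deleted, WT and ΔCdk Rb-HA MEFs for Eln, the 5 nearest genes and Mfap4, with Fbn1, Lox and Fbln2 dotted. Lines join the values of 1 gene on separate cultures and show no course in time; Eln reaches -1.63 on the ΔCdk Rb-HA array, the others in solid lines lie between -1.07 and -0.88, and Lox and Fbln2 stay near 0.

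Promoter windows of 300 bases were on hand from RefSeq (GRCm38.p6) for 4 of the 10 members, Fbn1, Fbln1, Fbln2 and Fbln5. Eln and Mfap4 had no window. E2F factors, to which Rb binds, recognise short GC-rich sites, and the letters TTTCCCGC, TTTGGCGC, TTTCGCGC and TTTGCCGC were searched on both strands. None of the 6 windows of these 4 genes held any of them, compared to 2.26% of all 32851 windows in the table. At so low a share 6 windows would mostly hold none, so the absence carries no information on these genes. The windows of Fbln1 also overlap. The 4 motifs are variants of 1 pattern, and each window runs from 250 bases before to 50 after a transcript start. Such a search describes the letters in these windows and says nothing of binding.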

How the data were processed

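RNA of 4 cultures was hybridised to Illumina MouseWG BeadChips, 1 array per condition. The authors deposited the bead-averaged intensity of each probe on a linear scale and left the arrays unscaled. The deposited detection p-value rises in steps of 1 in 936, and the deposited table also gives the bead standard error and the count of beads per probe, with a median of 44 on each array. Normalization by the study and the genome build are not given in the sources used here, so no genome coordinates of probes are given. Of 40 symbols turned into dates, 34 were restored from the Entrez number.

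Background was corrected with limma (version 3.58.1, R 4.3.3) by normexp, inferred from the detection p-values, with an offset of 16. Quantile normalization of the 4 arrays followed, and values are log2. Probes detected (p-value below 0.01) on 1 array or more were kept (17746 probes, 12616 genes), and the brightest probe stood for its gene. Bead standard errors were carried through each array's map from intensity to normalized value and combined over both arrays of a ratio. Every member was named, as were genes of the elastic fibre pathway, elastin degradation and fibrillar collagen lists past 1.6-fold and the 5 genes nearest to Eln. Emilin1, Efemp2, Fn1, Pcolce, Loxl4, Mmp2 and Mmp14 passed 1.6-fold in no comparison and were named as examples outside this rule. Marker genes named singly were chosen after their values were seen. Apart from the collagens, these were read from their brightest probe, and their other probes were not examined. Members, lists and alternatives were chosen with earlier results of these data known. The calculation was tested on simulated data. The number of arrays limits the precision. Figures were drawn with matplotlib (version 3.10.9) from tables made with pandas (2.3.3).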

Additional observations from a re-analysis of the deposited data

How the results depend on the processing

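Alternatives changed the background correction (offset of 50, or none), the scaling between arrays (75th percentile in place of quantile), the detection filter, the probes per gene, the fold, and whether bead error entered the call. Of 108 recounts of members past the fold, 105 gave the same count and 3 differed. Some settings could not change a count, so their agreement is no check. The 8 detected members were detected on every array, so the stricter filter kept the same genes. Dropping the filter only added Fbn2 and Fbln5, which were near background. Every called ratio of Eln and Mfap4 lay far beyond 2 bead standard errors, so that requirement removed none. At 2-fold, members higher in Rb-deleted than in parental MEFs fell from 1 to 0 and members lower in ΔCdk Rb-HA than in parental MEFs from 2 to 1, which was Eln. At 1.5-fold, 1 member, again Eln, was lower in WT Rb-HA than in Rb-deleted MEFs. Over the background, scaling, filter and probe settings the log2 ratio of ΔCdk Rb-HA to WT Rb-HA MEFs lay between -1.85 and -1.77 for Eln and between -1.38 and -1.35 for Mfap4. Averaging the detected probes of a gene turned that ratio for Fbn1 to 0.14 and its ratio to Rb-deleted MEFs to 0.20. It also turned Fbln2 to 0.06 with WT Rb-HA and 0.15 with ΔCdk Rb-HA, both above parental, and moved Loxl1 in ΔCdk Rb-HA MEFs to -0.67. The median of the members in ΔCdk Rb-HA compared to parental MEFs moved to -0.17 without a filter and with averaged probes, and that with WT Rb-HA from -0.18 to -0.06 with averaged probes. No paired analysis was possible because there is 1 array per condition. Signals near background, as for Fbn2 and Fbln5, set no limit on a change in those genes.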
